A study of Mus musculus with 2 samples.

Results

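The expression of 9 regulators of epithelial identity, Trp63, Foxa1, Foxa2, Grhl2, Grhl3, Ovol1, Esrp1, Tfap2a and Tfap2c, was examined in the mouse genital tubercle, the embryonic bud of the penis or clitoris, on embryonic day 14.5 (Theiler stage 22). They were picked by symbol from the 31053 genes counted, and all 9 were found. The embryos were wild-type C57BL/6 with no transgene and no treatment. Tubercles of 3 male embryos and of 3 female embryos from 2 litters were pooled by sex, which gave 1 male and 1 female single-cell RNA library. Embryos within a pool cannot be told apart, each sex is 1 pool, and all comparisons are given without a test. Counting intervals are given for part of the comparisons, and values printed without one carry counting error that is not shown. Values are given first for the male and then for the female library. Intervals are exact at 95% and cover only counting error.

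An epithelium is a sheet of cells held together by junctions and marked by the adhesion molecule Epcam, while mesenchyme is the loose tissue below it. The tubercle is covered by surface ectoderm and contains the urethral plate, an epithelium of endodermal origin that secretes Sonic hedgehog (Shh) and signals to the mesenchyme around it. The transcription factor p63, encoded by Trp63, maintains stratified epithelia. Foxa1 and Foxa2 are pioneer factors that open chromatin in endodermal epithelia. Grainyhead-like factors (Grhl2, Grhl3) control junction and barrier genes, and Ovol1 is a zinc finger repressor of the mesenchymal state. Tfap2a and Tfap2c are AP-2 factors of surface ectoderm and neural crest. Esrp1 is an RNA-binding regulator of epithelial splicing and not a transcription factor, so the set is called epithelial regulators here.

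A barcode was kept if it had 2000 or more unique molecular identifiers (UMIs, which count captured RNA molecules) and 500 or more genes, with no more than 10% of its UMIs mitochondrial. This left 17254 male and 18711 female barcodes, with a median of 5169 and 5242 UMIs. At least 1 Epcam UMI was found in 628 and 598 of them. Of these, 168 (26.8%) and 97 (16.2%) also held at least 3 of 14 further epithelial markers and are called epithelium-like, 265 in all. The limit fell in a sparse range, since 11 and 12 epithelium-like barcodes held exactly 3 markers and 8 and 3 of those left out held exactly 2. The other 460 and 501 barcodes with Epcam had a median of 0.209% and 0.206% of their UMIs from 6 mesenchyme markers, close to the 0.218% and 0.217% of mesenchyme-like barcodes and above the 0.0114% and 0.0184% of epithelium-like ones. Comparison classes without Epcam were mesenchyme-like (14152 and 15258 barcodes), endothelium-like (195 and 134) and glia-like (55 and 71). The distal and genital factors Hoxd13 (163 and 183), Hoxa13 (90.0 and 87.1) and Isl1 (425 and 479) were all counted in the mesenchyme-like class, in UMIs per 1000000 UMIs of the class (CPM). The libraries shared 82 kept barcode sequences, none of them epithelium-like in both libraries.

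At least 1 UMI of a Shh transcript split the epithelium-like barcodes into 36 and 25 Shh-positive and 132 and 72 Shh-negative barcodes. Their median depth was 10642 and 12084 UMIs with Shh and 8831 and 9042 without, and the part of depth in the split was not tested. In the male library the Shh-positive barcodes held more mesenchyme marker UMIs (1410 against 384 CPM over 6 markers, none at 0) and more endothelium marker UMIs (228 against 17.8 CPM over 10 markers, with 7 at 0 in the Shh-negative group). In the female library the same lists gave 581 against 597 CPM and 6.12 against 23.5 CPM. These are sums over a group and do not describe its typical barcode. The median mesenchyme marker share per male barcode was 0.0105% with Shh and 0.0114% without. Leaving out barcodes with 3 markers of another class left 34 male Shh-positive and 132 male Shh-negative barcodes. Mesenchyme was not among those classes, so this did not remove mixtures with mesenchyme. Leaving out barcodes with more than 0.5 times the median mesenchyme marker share of the mesenchyme-like class left 32 male Shh-positive and 114 male Shh-negative barcodes.

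Short promoter stretches are shown first, because the factors examined are known to act through such letters. The RefSeq promoter table for the mouse build GRCm38.p6 held 4 of the 9 genes, Foxa1, Foxa2, Grhl3 and Tfap2a. In the 250 bases before each start, both strands were searched for the forkhead letters TGTTTAC and TGTTTGC, the AP-2 letters GCCNNNGGC, the grainyhead letters AACCGGTT and AACCTGGTT, the E-box CACCTG that Snail and Zeb repressors read, and the Gli letters TGGGTGGTC, Gli factors being those that answer hedgehog signals. Capitals mark the match, each stretch is 30 bases on the strand of its gene, and the matches shown do not overlap. The Epcam promoter is included because Epcam defined the barcodes.
Foxa1 forkhead, chr12:57546234-57546263, minus strand: tatactgctttGTAAACAaagtgagggcca
Foxa1 E-box, chr12:57546117-57546146, minus strand: gcggccgcctcaCAGGTGcacctcgggctt
Foxa2 AP-2, chr2:148047046-148047075, minus strand: aggccctcatGCCAGAGGCaaatcgctgcc
Foxa2 AP-2 at another start, chr2:148046066-148046095, minus strand: gctacttcccGCCGCAGGCcgcgggagaga
Grhl3 E-box, chr4:135573634-135573663, minus strand: agttaacatctgCACCTGctgtggtctagc
Epcam distal E-box, chr17:87635780-87635809, plus strand: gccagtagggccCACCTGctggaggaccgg
Epcam proximal E-box, chr17:87635948-87635977, plus strand: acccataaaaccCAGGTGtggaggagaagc
The first matched base lay 141 bases before the start for the Foxa1 forkhead letters, 23 for its E-box, 96 and 137 for Foxa2, 19 for Grhl3, and 187 and 19 for Epcam. Over all 32851 promoters of the table, TGTTTAC was found in 3.17%, the AP-2 letters in 13.7% and CACCTG in 17.2%. None of the letters was found in the windows of Tfap2a. The starts are those of the promoter table. The Foxa1 and Tfap2a windows and the Foxa2 site at another start lay inside the gene spans given below, so these starts are internal ones. These are matches of letters and were not tested for binding.

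Trp63 (chr16:25683763-25892102, plus strand, mm10) encodes p63, and it was counted in most epithelium-like barcodes. Its level was 173 CPM (437 UMIs) in the male and 165 CPM (208 UMIs) in the female epithelium-like class. In mesenchyme-like barcodes it was 1.07 and 0.704 CPM, which put the epithelium 161-fold (interval 129 to 203) and 234-fold (178 to 310) higher. A Trp63 UMI was seen in 67.3% and 58.8% of epithelium-like barcodes at median depths of 9194 and 9594 UMIs, and in 0 of 195 and 0 of 134 endothelium-like barcodes at 12005 and 10266 UMIs, which allows shares of barcodes with a UMI of up to 1.54% and 2.24% (3 barcodes). After thinning to 2000 UMIs the epithelial shares were 23.8% and 26.8%. Up to 20 and 16 Trp63 UMIs were counted in 1 barcode. The counts do not separate the p63 isoforms.

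The grainyhead-like genes and their partners in the epithelial program were also higher in epithelium-like than in mesenchyme-like barcodes. Grhl2 (chr15:37233036-37363569, plus strand) stood at 43.6 and 35.6 CPM in epithelium-like barcodes and at 0.358 and 0.396 CPM in mesenchyme-like barcodes. Grhl3 (chr4:135541888-135573630, minus strand), known for its part in neural tube and skin barrier closure, stood at 19.4 and 30.9 against 0.548 and 0.511 CPM. Ovol1 (chr19:5549136-5560646, minus strand) stood at 17.4 and 19.0 CPM, with 5 UMIs in the whole mesenchyme-like class of each library. Esrp1 (chr4:11331933-11386783, minus strand) stood at 66.5 and 68.1 against 0.291 and 0.232 CPM. In each library Grhl3 had the smallest of these 4 epithelial ratios, 35.4-fold and 60.4-fold, and Ovol1 the largest, 311-fold and 394-fold. In endothelium-like barcodes Grhl2 had 1 UMI in each library, and Grhl3, Ovol1 and Esrp1 had none. Antisense genes that were counted separately overlap Grhl2, Esrp1 and Tfap2a, and whether the counting used strand was not given here.

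Foxa1 (chr12:57540628-57546916, minus strand) and Foxa2 (chr2:148042877-148046969, minus strand) were seen in a minority of epithelium-like barcodes. Foxa1 was at 25.7 CPM (65 UMIs) and 20.6 CPM (26 UMIs), and was seen in 13.1% and 14.4% of epithelium-like barcodes. Foxa2 was at 19.8 CPM (50 UMIs) and 15.0 CPM (19 UMIs), in 11.9% and 10.3% of them. The mesenchyme-like class held 10 and 0 Foxa1 UMIs, so that the epithelium was 230-fold higher (interval 117 to 502) in the male library and at least 711-fold higher in the female library against a floor of 3 UMIs. It held 3 Foxa2 UMIs in each library, and endothelium-like barcodes held no UMI of either gene.

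The AP-2 genes had another profile. Tfap2a (chr13:40715302-40738376, minus strand) stood at 40.0 and 45.1 CPM in epithelium-like barcodes and at 21.7 and 21.6 CPM in mesenchyme-like barcodes, a log2 ratio of 0.88 (0.58 to 1.17) and 1.06 (0.66 to 1.44). Tfap2c (chr2:172549593-172558622, plus strand) stood at 15.4 and 26.9 against 6.41 and 5.72 CPM, a log2 ratio of 1.27 (0.76 to 1.74) and 2.23 (1.69 to 2.73). The AP-2 ratios of epithelium to mesenchyme were at most 4.70-fold, while the smallest ratio of the other 7 genes was 35.4-fold.

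**Figure D1:**
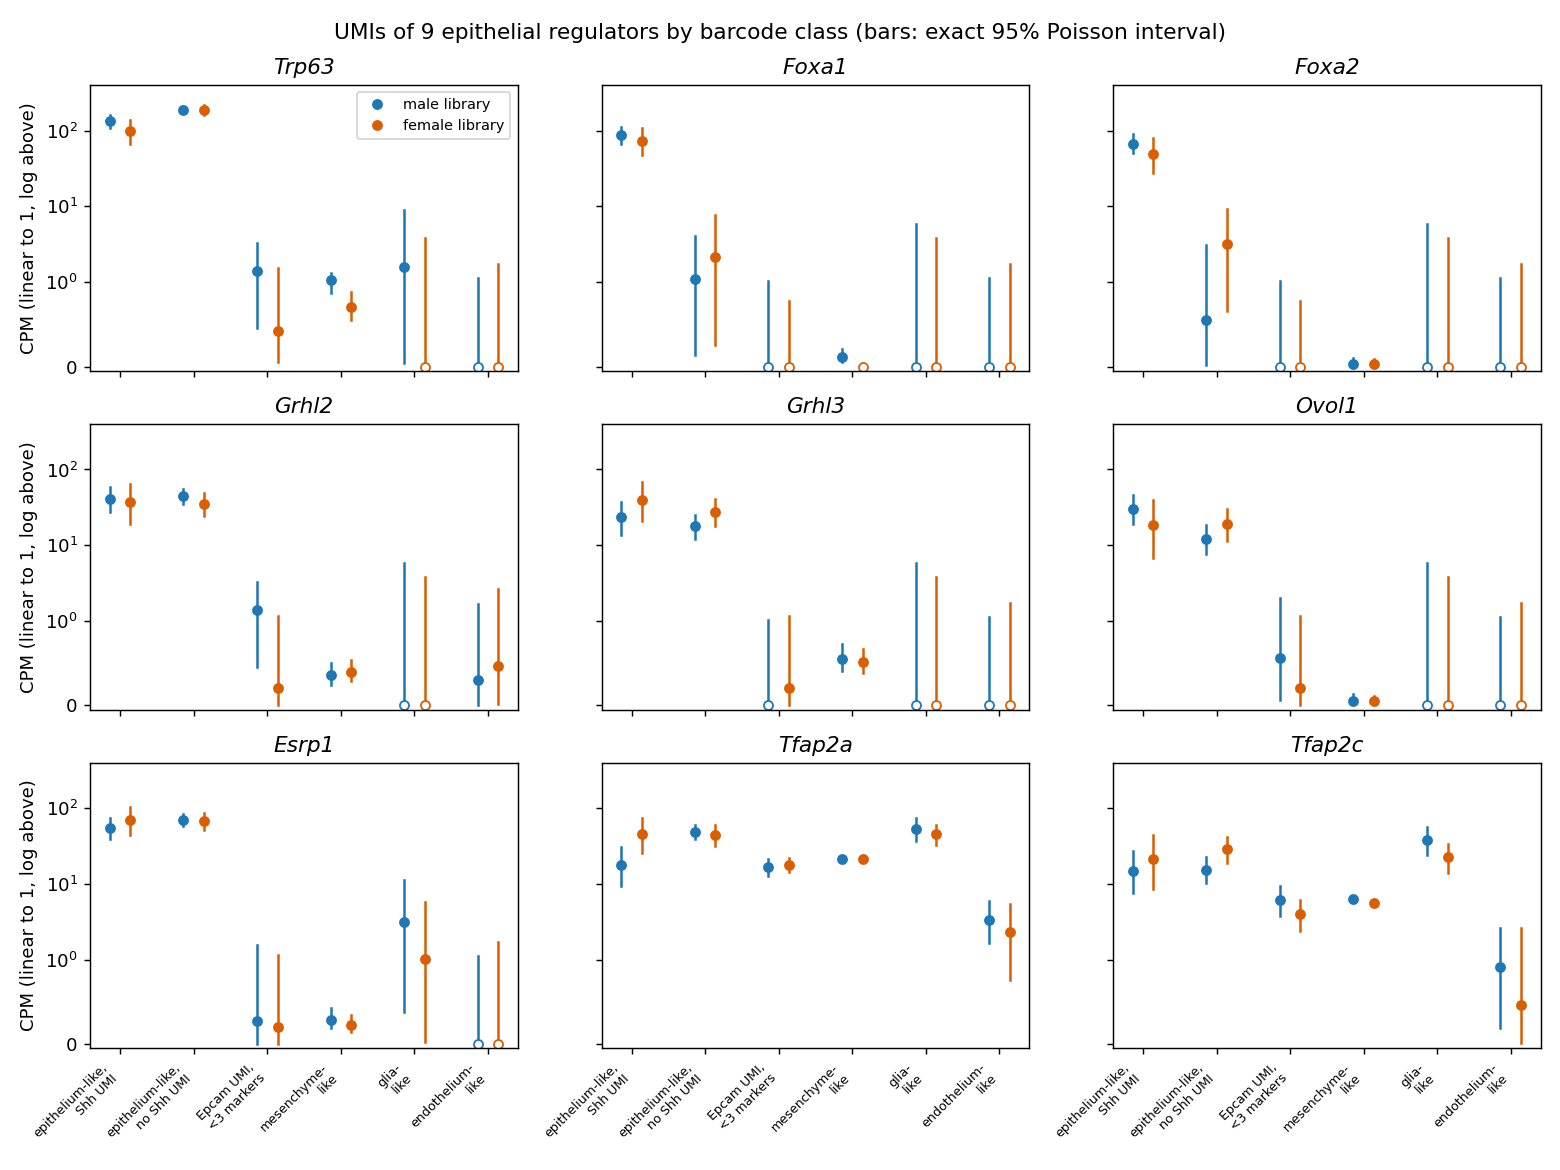
Levels of the 9 genes (CPM, linear up to 1 and logarithmic above) in 6 barcode classes of the male (blue) and female (orange) library, with exact 95% Poisson intervals as bars and open circles for 0 UMIs. Tfap2a and Tfap2c stay above 5 CPM in mesenchyme-like and glia-like barcodes, while the other 7 genes are near or below 3 CPM there.

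By the rule of a 2-fold difference and at least 20 summed UMIs, 8 of 9 genes (male) and 9 of 9 genes (female) were higher in epithelium-like than in mesenchyme-like barcodes, where 9.99% and 10.6% of all genes with that many UMIs were. The gene short of 2-fold was Tfap2a in the male library (1.84-fold). Foxa1 (10 and 0 UMIs in mesenchyme-like barcodes), Foxa2 (3 and 3) and Ovol1 (5 and 5) reached 20 summed UMIs only through the epithelium-like class. Since that class is much the smaller one, passing the filter nearly fixed their direction. In this count they add no separate support. The median log2 ratio was 7.33 and, with Foxa1 at its bound, 7.87, against a median of -0.18 and -0.14 over all genes. Against endothelium-like barcodes 9 of 9 and 8 of 8 were over 2-fold higher, with a background of 14.1% and 10.7%. Foxa2 in the female library fell short of 20 UMIs there, with 19 against 0. Trp63, Foxa1, Foxa2, Grhl3, Ovol1 and Esrp1 had 0 endothelial UMIs and Grhl2 had 1 in each library. With so few, these genes could reach 20 UMIs only through the epithelium-like class, which fixed their direction. This count therefore adds no separate support for them. With 3 barcodes left out that held markers of another class, mesenchyme not included (2 male and 1 female), the counts against mesenchyme were again 8 and 9.

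Genes that belong to the same families or to the same state were compared in the same way. The 20 UMIs were again summed over both classes, so a gene rare in mesenchyme could pass only through the epithelium. Of the relatives Grhl1, Ovol2, Esrp2, Tfap2b, Tfap2d, Tfap2e, Foxa3 and Trp73, 5 (male) and 4 (female) had enough UMIs, and these were all over 2-fold higher in the epithelium. Tfap2b was at 110 and 133 CPM in the epithelium against 3.38 and 3.56 CPM in mesenchyme, so this AP-2 gene had a much larger ratio than Tfap2a and Tfap2c. Foxa3 had no UMI in the epithelium-like barcodes of either library. Of 18 other epithelial factors 13 had enough UMIs in each library. The same 9 were higher in both, among them Sox2, and Foxq1, Gata2 and Pitx1 were lower in both. Of 6 factors of the mesenchymal state 5 were lower in both, namely Snai1, Twist1, Twist2, Zeb1 and Zeb2. Of all genes, 9.99% and 10.6% were that much higher and 2958 of 14794 and 3228 of 14742 were that much lower. Zeb1, a repressor of epithelial genes that reads E-box letters, was at 7.92 and 13.5 CPM in the epithelium and at 41.3 and 44.9 CPM in mesenchyme.

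Levels were higher in barcodes with 6 or more Epcam UMIs than in those with 1, though not stepwise for every gene. Among barcodes with a single Epcam UMI, 6.94% and 5.31% were epithelium-like, and Trp63 was at 8.43 and 4.22 CPM. Among barcodes with 6 or more, all 60 and all 35 were epithelium-like, and Trp63 was at 193 and 178 CPM, Esrp1 at 68.5 and 71.6 CPM and Grhl2 at 43.6 and 35.1 CPM. Tfap2a went from 16.3 to 43.0 CPM and from 17.1 to 54.1 CPM over the same groups, and Tfap2c was at 6.40, 10.1, 5.85 and 18.8 CPM in the male groups of 1, 2, 3 to 5 and 6 or more Epcam UMIs. Median depth also differed, at 6121 and 6876 UMIs for barcodes with 1 Epcam UMI and 17422 and 15548 for those with 6 or more, and its part in these levels was not tested.

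**Figure D2:**
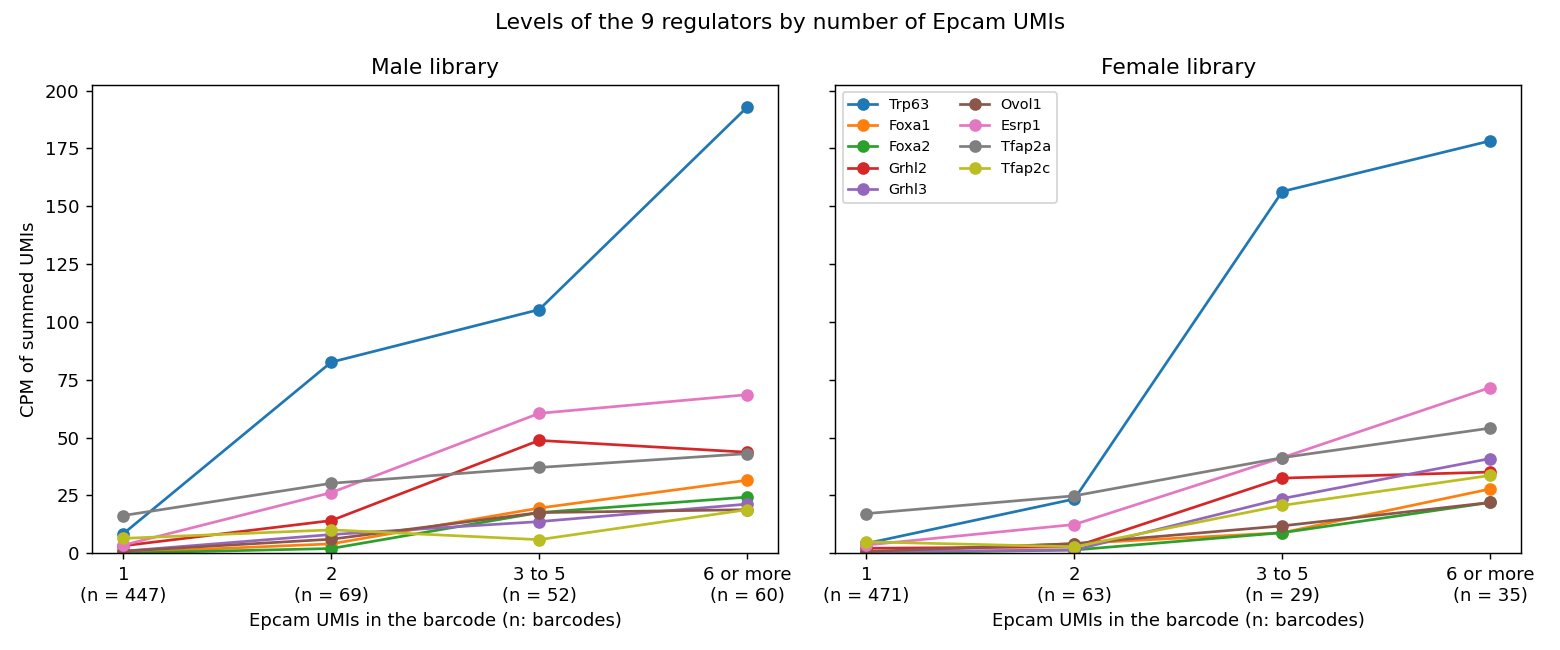
Levels of the 9 genes (CPM of summed UMIs, linear axis) in barcodes grouped by their number of Epcam UMIs, for the male (left) and female (right) library, with the number of barcodes under each group. Trp63 goes from 8.43 and 4.22 CPM at 1 Epcam UMI to 193 and 178 CPM at 6 or more, while Tfap2a is already at 16.3 and 17.1 CPM at 1 Epcam UMI.

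Barcodes with Epcam and fewer than 3 further markers carried the levels of mesenchyme. In these 460 and 501 barcodes no Foxa1 or Foxa2 UMI was found, Trp63 had 5 and 2 UMIs, and Grhl2, Grhl3, Ovol1 and Esrp1 had 0 to 5 UMIs each. Tfap2a was at 16.8 and 17.9 CPM there, near its 21.7 and 21.6 CPM in mesenchyme-like barcodes. The 7 regulators outside AP-2 were thus nearly absent from barcodes with Epcam and few other epithelial markers.

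Within the epithelium, Foxa1 and Foxa2 were concentrated in the Shh-positive barcodes. Foxa1 was at 86.7 CPM (63 UMIs) with Shh and 1.11 CPM (2 UMIs) without in the male library, and at 73.4 CPM (24 UMIs) and 2.14 CPM (2 UMIs) in the female library. The log2 ratio was 6.29 (4.37 to 9.36) and 5.10 (3.09 to 8.23). A Foxa1 UMI was seen in 20 of 36 and 12 of 25 Shh-positive barcodes, and in 2 of 132 and 2 of 72 Shh-negative ones. Foxa2 was at 67.4 CPM (49 UMIs) against 0.556 CPM (1 UMI), and at 48.9 CPM (16 UMIs) against 3.20 CPM (3 UMIs), a log2 ratio of 6.92 (4.38 to 12.26) and 3.93 (2.13 to 6.35). The female Foxa2 value rests on 19 UMIs. A Foxa2 UMI was seen in 19 of 36 and 8 of 25 Shh-positive and in 1 of 132 and 2 of 72 Shh-negative barcodes. With the Shh groups kept as set at full depth and the Foxa UMIs thinned to 2000 UMIs per barcode, Foxa2 was seen in 8 of 36 and 3 of 25 with Shh and in 0 of 132 and 2 of 72 without, and Foxa1 in 4 of 36 and 2 of 25 with Shh and in 1 of 132 and 0 of 72 without. With Shh thinned as well, Foxa1 was seen in 3 of 12 and 2 of 12 barcodes with Shh and in 2 of 156 and 0 of 85 without, but Foxa2 in 1 of 12 and 0 of 12 with Shh and in 7 of 156 and 5 of 85 without, so at that depth the Foxa2 difference was not detectable. The endothelium-like barcodes had neither gene at full depth.

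Trp63 was counted on both sides of the split and at a higher level on the Shh-negative side. It was at 132 CPM with Shh and 190 CPM without in the male library, and at 97.9 and 188 CPM in the female library. The log2 ratio was -0.52 (-0.86 to -0.19) and -0.94 (-1.53 to -0.39), with both intervals below 0. The share of barcodes with a Trp63 UMI was close on both sides. It was 24 of 36 (66.7%) and 14 of 25 (56.0%) with Shh, and 89 of 132 (67.4%) and 43 of 72 (59.7%) without. With an Epcam UMI as the only criterion the direction of the log2 ratio turned, to 1.02 and 1.65, since the Shh-negative group then took in the mesenchyme-like barcodes described above.

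For 4 genes the intervals of both libraries took in a ratio of 1. Grhl2 was at 41.3 and 36.7 CPM with Shh and 44.5 and 35.2 CPM without, a log2 ratio of -0.11 (-0.76 to 0.52) and 0.06 (-1.03 to 1.05). Esrp1 gave -0.37 (-0.92 to 0.15) and 0.06 (-0.69 to 0.77), and Grhl3 gave 0.40 (-0.55 to 1.29) and 0.52 (-0.56 to 1.53). Tfap2c, at 15.1 and 21.4 CPM with Shh and 15.6 and 28.8 CPM without, also took in 1, and its intervals reached from -1.19 to 1.01 and from -1.87 to 0.81. A difference inside these intervals was not detectable at this depth.

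Ovol1 and Tfap2a differed in 1 library. In the male library Ovol1 was at 30.3 CPM with Shh and 12.2 CPM without (log2 1.31, interval 0.39 to 2.23), and Tfap2a at 17.9 and 48.9 CPM (log2 -1.45, -2.42 to -0.60). In the female library Ovol1 was at 18.4 and 19.2 CPM (log2 -0.07, -1.69 to 1.33), and Tfap2a at 45.9 and 44.8 CPM (log2 0.03, -0.92 to 0.91). The difference between the libraries was not tested. With the barcodes of high mesenchyme marker share left out, the male values were 1.57 for Ovol1 and -1.53 for Tfap2a.

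By a 1.5-fold rule with at least 20 UMIs, Foxa1, Foxa2 and Ovol1 (3 of 9, male) and Foxa1 (1 of 8, female) were higher with Shh, where 11.3% and 11.2% of all genes were. Tfap2a (1 of 9, male) and Trp63 (1 of 8, female) were lower, where 17.2% and 16.5% were. The female count of 1 in 8 in each direction is close to these shares. Foxa1 (2 and 2 UMIs without Shh) and male Foxa2 (1 UMI without Shh) reached 20 UMIs only through the Shh-positive group.

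**Figure D3:**
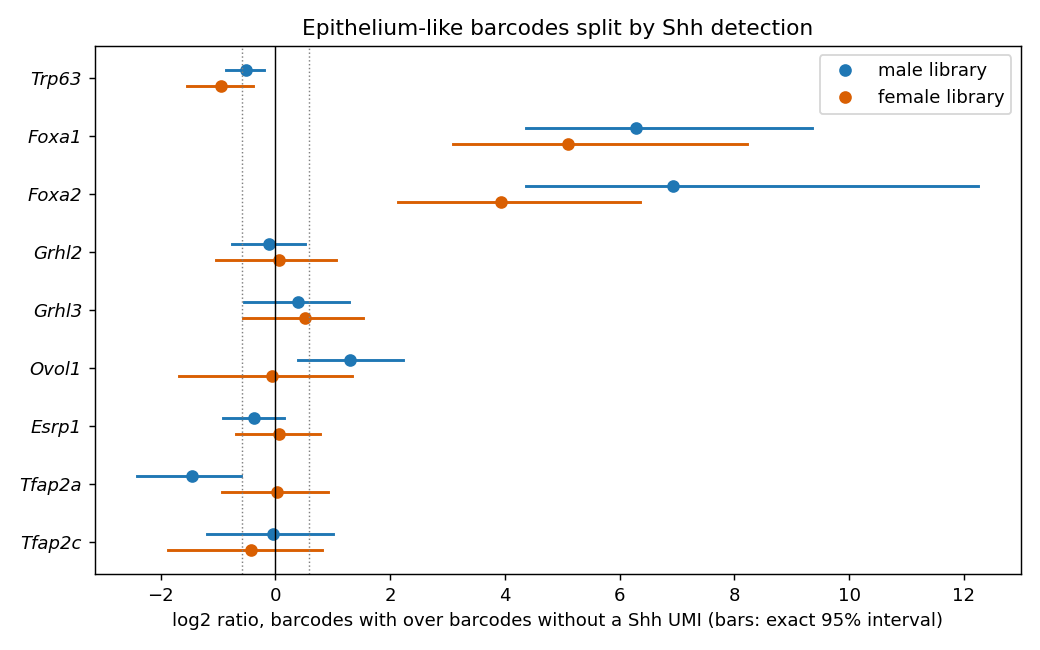
Log2 ratio of each gene between epithelium-like barcodes with and without a Shh UMI in the male (blue) and female (orange) library, with exact 95% intervals as bars and dotted lines at 1.5-fold. Foxa1 (6.29 and 5.10) and Foxa2 (6.92 and 3.93) lie far to the right, and Trp63 lies left of 0 in both libraries (-0.52 and -0.94).

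Genes with at least 20 UMIs in each library and the same direction in both were ranked by the smaller of their 2 log2 ratios. Foxa1 and Sox2 tied for the first place. Foxa2 (log2 6.92 and 3.93) was not ranked because it had 19 UMIs in the female library. Sox2, a factor of endodermal and sensory epithelia, was at 88.1 and 110 CPM with Shh against 1.11 and 3.20 CPM without. Atp1b1, a subunit of the sodium pump, was at 132 and 122 against 3.89 and 1.07 CPM. Rnf32 was at 60.6 and 55.1 against 1.67 and 5.34 CPM. Rnf32 lies on chromosome 5, as Shh does, 729 kb away with 0 protein-coding genes annotated in between. Mgp, which encodes a matrix protein, came next. On the Shh-negative side the first 5 were Palmd, Bfsp2, Irx4, Npr3 and Gabrp. Palmd had no UMI in Shh-positive barcodes and 78 and 32 UMIs in Shh-negative ones.

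Genes linked to the regulators were compared across the split without those that served as class markers, such as the keratins Krt5 and Krt14. Of 6 such genes linked to p63, 2 (male) and 4 (female) were over 1.5-fold lower with Shh, next to 17.2% and 16.5% of all genes, and 1 in each library was higher, next to 11.3% and 11.2%. Col17a1, a collagen of the attachment of basal cells, was at 26.2 and 27.5 CPM with Shh and 80.0 and 41.6 CPM without, and only the male interval lay below 0 (log2 -1.61, -2.39 to -0.92, against -0.60, -1.83 to 0.47). Of 2 such genes linked to grainyhead factors, Prss8 was over 1.5-fold higher in the male library, with an interval that took in 0 (log2 0.72, -0.59 to 1.97), and the other values rested on fewer than 20 UMIs. Tfap2b, the AP-2 gene with the larger epithelial ratio, was at 16.5 and 36.7 CPM with Shh and 148 and 167 CPM without. Trp73, a relative of Trp63, had 2 and 0 UMIs with Shh and 35 and 13 without.

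Individual barcodes showed how the forkhead genes were shared out. Among Shh-positive barcodes, 12 and 5 held both Foxa1 and Foxa2, 8 and 7 held Foxa1 alone, 7 and 3 held Foxa2 alone, and 9 and 10 held neither. Median depth in the male library was 18516 UMIs with both, 10642 and 9935 with 1 of them and 8065 with neither, and in the female library 10346, 15548, 11790 and 9925. The part of depth in this division was not tested. The Shh-positive barcodes with a Foxa UMI had Krt8, a keratin of simple epithelia and a class marker, at 501 and 606 CPM, and those without had it at 293 and 177 CPM. This was not particular to Krt8. Krt5 (169 and 216 against 97.5 and 168 CPM), Krt15 (597 and 423 against 263 and 84.1 CPM) and Krt19 (184 and 543 against 165 and 50.5 CPM) were also higher. Epcam was higher too (551 and 822 against 353 and 471 CPM), while Krt14 differed in direction (142 and 245 against 128 and 547 CPM). The 9 and 10 barcodes without Foxa held few UMIs of some keratins, 13 and 20 of Krt5 and 22 and 6 of Krt19. No intervals were computed for these groups, and whether each difference exceeds counting error was not tested. In the male barcodes Shh itself was at 258 CPM with and 143 CPM without a Foxa UMI, and in female barcodes at 236 and 328 CPM, so its direction differed between the libraries. Among Shh-negative barcodes 2 of 132 and 3 of 72 held a Foxa UMI.

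**Figure D4:**
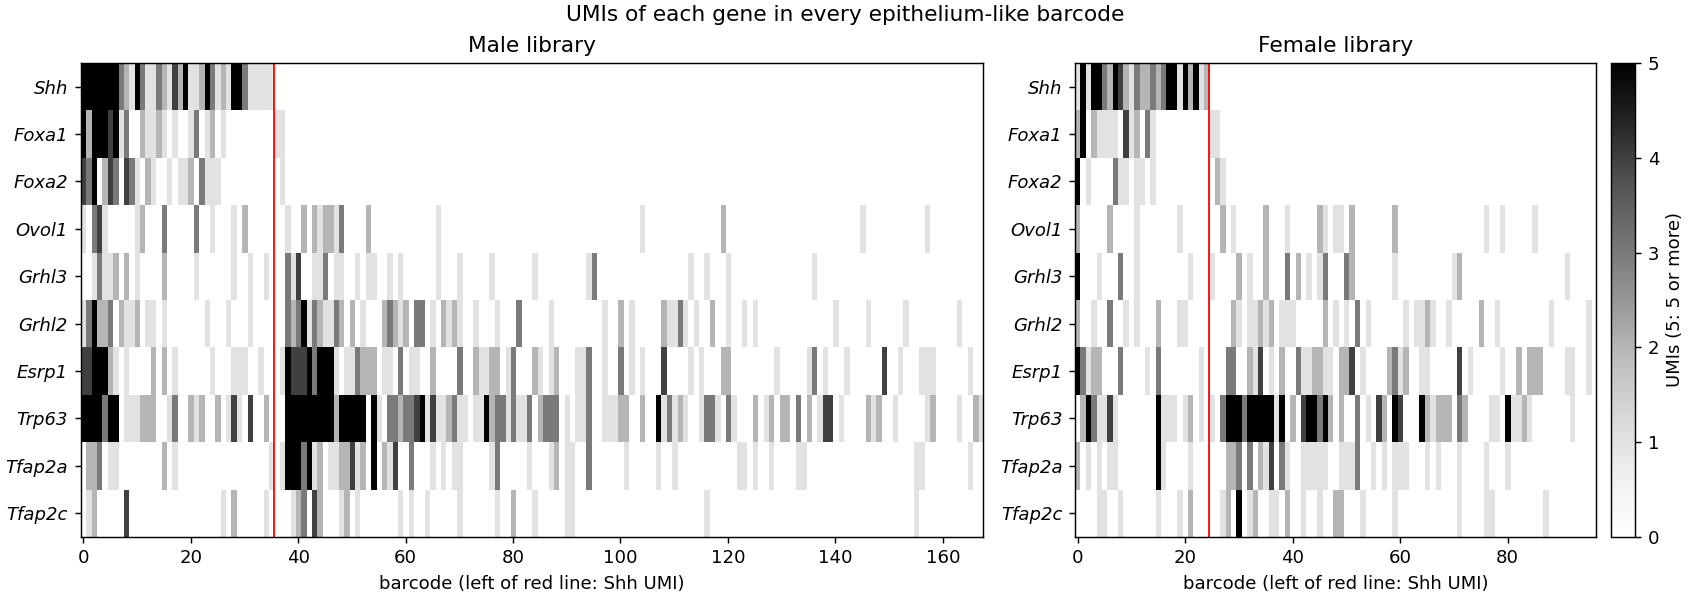
UMIs of Shh and the 9 genes in each epithelium-like barcode (168 male, left, and 97 female, right), shaded from 0 to 5 or more, with barcodes ordered by whether Shh was seen, then whether Foxa1 or Foxa2 was seen, then by depth. Foxa1 and Foxa2 fall almost wholly to the left of the red line that ends the Shh-positive barcodes, while Trp63 and Esrp1 are counted on both sides.

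Over all epithelium-like barcodes, Foxa1 and Foxa2 occurred together. Foxa1 was seen in 13 of 20 (male) and 6 of 10 (female) barcodes with Foxa2, and in 9 of 148 and 8 of 87 without it. Of those without Foxa2, only 17 of 148 and 17 of 87 held Shh, so this contrast overlaps with the Shh split. Among Shh-positive barcodes alone, 12 and 5 held both, 8 and 7 Foxa1 alone, 7 and 3 Foxa2 alone, and 9 and 10 neither. Whether the 2 genes go together beyond the Shh split was not tested. Tfap2a and Esrp1 also occurred together, since Esrp1 was seen in 65.4% and 63.9% of epithelium-like barcodes with Tfap2a and in 34.5% and 32.8% of those without. Tfap2a and Grhl3 gave a like picture, with Tfap2a in 51.4% and 70.0% of barcodes with Grhl3 and in 25.6% and 28.6% of those without. Deeper barcodes show more of every gene, and after thinning to 2000 UMIs no pair of the 9 genes had separate intervals. A median of 2 of the 9 genes was seen per epithelium-like barcode in each library, with up to 9 and 7. At least 3 were seen in 41.1% and 44.3% of epithelium-like barcodes (1.79% and 4.12% after thinning), in 4 of 14152 and 3 of 15258 mesenchyme-like barcodes, and in none of the endothelium-like ones.

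The AP-2 genes were also counted outside the epithelium. In glia-like barcodes, the class that carries neural crest markers such as Sox10, Tfap2a was at 54.0 CPM (34 UMIs) and 45.4 CPM (44 UMIs) and Tfap2c at 38.2 CPM (24 UMIs) and 22.7 CPM (22 UMIs). Against mesenchyme this was a log2 ratio of 1.32 (0.78 to 1.80) and 1.07 (0.61 to 1.50) for Tfap2a, and of 2.57 (1.92 to 3.16) and 1.99 (1.30 to 2.60) for Tfap2c. The order of Tfap2a levels ran from glia-like and epithelium-like, which did not differ beyond their intervals, to mesenchyme-like and then endothelium-like barcodes (3.36 and 2.35 CPM). Mesenchyme-like over endothelium-like barcodes gave a log2 ratio of 2.69 (1.85 to 3.69) and 3.20 (1.97 to 4.82) for Tfap2a and 2.80 (1.25 to 5.09) and 3.60 (1.12 to 8.91) for Tfap2c. In barcodes of 10 to 100 UMIs, which hold mostly free RNA, Tfap2a was at 26.1 and 21.95 CPM, and it was seen in 10.8% and 11.5% of mesenchyme-like barcodes (median 5299 and 5439 UMIs) against 5.13% and 3.73% of the deeper endothelium-like ones. After thinning these shares were 4.03% and 4.39% against 0.513% and 0.746%. The part of free RNA in the mesenchymal level was not tested.

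Mesenchyme-like barcodes with a Tfap2a UMI (1528 and 1755) were set against those without (12624 and 13503). Their summed level of epithelial markers was close, 17.3 against 17.4 CPM and 12.9 against 13.1 CPM. Tfap2c was at 15.2 against 5.10 CPM and at 13.4 against 4.49 CPM, and Tfap2b at 7.08 against 2.83 and 9.75 against 2.56 CPM. Among genes with at least 200 UMIs in each library, a limit chosen after the values were seen, the highest ratios were those of Vgll2, Runx3, Sp9, Tfap2c and Msx2, and the lowest those of Ebf2, Irx1, Gatm, Vwc2 and Clrn1. Msx2, a homeobox factor of limb and genital buds, was at 284 against 97.2 CPM and at 248 against 80.0 CPM. Sp9, a zinc finger factor of outgrowing buds, was at 103 against 34.0 CPM and at 82.7 against 26.5 CPM. The barcodes with Tfap2a were deeper, at a median of 6252 against 5218 and 6698 against 5322 UMIs.

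Between the sexes, 7 of 9 genes in epithelium-like barcodes were within 1.5-fold, and Grhl3 and Tfap2c (2 of 9) were further apart, where 16.4% of all genes were. Grhl3 gave a log2 male over female ratio of -0.67 (-1.31 to -0.02) and Tfap2c of -0.80 (-1.50 to -0.09). The other intervals took in 0, with Trp63 at 0.07 (-0.17 to 0.32), Foxa1 at 0.32 (-0.35 to 1.04) and Foxa2 at 0.40 (-0.39 to 1.24). Among Shh-positive barcodes alone Tfap2a gave -1.36 (-2.55 to -0.19). Each sex is 1 pool, so sex and library cannot be told apart.

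The genes most like each regulator were ranked by Pearson's correlation of log2(CPM + 5) over 6 classes of both libraries (12 points that share their libraries, with the Shh-positive group left out as it held under 50 barcodes). Trp63 was most like Wnt7a (0.998), Grhl3 most like Arg1 (0.999), Ovol1 most like Ppl (0.996), Grhl2 most like Upk3bl (0.996), Tfap2a most like Igfbp5 (0.967) and Tfap2c most like Dlx2 (0.981). Over these 12 points Foxa1 was most like Camsap3 (0.995) and Foxa2 most like Cd164l2 (0.965). The epithelial points here were the Shh-negative barcodes alone, with 2 and 2 Foxa1 and 1 and 3 Foxa2 UMIs. Both Foxa rankings thus rest on counts no higher than the floor of 3 UMIs. With the whole epithelium-like class in place of the Shh-negative group, Foxa1 was most like Upk3bl (0.9999) and Foxa2 most like Foxa1 (0.9998). The first gene then also changed for Trp63 (Gjb2), Grhl2 (Eps8l2), Grhl3 (Igfbpl1) and Ovol1 (Kremen2), and stayed for Tfap2a and Tfap2c. With the Shh-positive group added after the values were seen (14 points), Foxa2 was most like Foxa1 (0.998) and Foxa1 most like Shh. That group was made by Shh detection, so the likeness of Foxa1 to Shh restates the split and adds no separate evidence. Points in which nearly all classes are near 0 give high correlations to many genes.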

How the data were processed

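Per the submitters' processing notes, reads were processed with Cell Ranger 3.1 on mm10. The authors deposited raw UMI counts for every barcode, with no cell calling, and the annotation and strand setting were not given in the sources used here. Classes were set by marker rules: Epcam with 3 of 14 markers for epithelium, and 0 Epcam UMIs with 3 markers of the class for the others, with haemoglobin over 20% for erythroid barcodes. UMIs were summed per class and library and given as CPM with exact Poisson intervals, ratios with exact conditional intervals, and shares with Clopper-Pearson intervals (Python 3.11.15, scipy 1.17.1). These cover counting error only. A count of 0 was set to a floor of 3 UMIs for bounds. No doublet caller was run. Ratios were tested on simulated data. Named genes were the 9 regulators, related gene lists by counts, and the 5 leading genes each way in the Shh split. Tfap2b, Zeb1, Krt8 and the other single genes of the lists were picked as examples after their values were seen. Of the gene IDs, 31011 of 31053 (99.9%) matched GENCODE annotation of mm10, which gave coordinates. The members and lists were chosen with earlier results of these data known. Total depth was 130105692 male and 144515562 female UMIs.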

Additional observations from a re-analysis of the deposited data

Results flagged for a closer look

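The ratio of Shh-positive to Shh-negative epithelium-like barcodes had opposite signs in the male and female library for 4 genes, and the difference between the libraries was not tested. Ovol1 stood at a log2 ratio of 1.31 (male) and -0.07 (female). Tfap2a stood at -1.45 and 0.03. Grhl2, at -0.11 and 0.06, and Esrp1, at -0.37 and 0.06, had intervals that took in 0 in both libraries.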

How the results depend on the processing

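No paired analysis was possible because the libraries share fewer than 2 replicate numbers. Of 76 counts of members recomputed under other settings 54 stayed within 1.5 times, and of 400 ratios of single members 319 stayed within their interval, 77 moved and 4 that had passed the fold turned. With an Epcam UMI alone, 8 members in each library were higher with Shh, 0 in the female library were lower, and 6 were apart between the sexes. That setting also turned Trp63 in the female Shh split (1.65), as well as in the male split (1.02), where it had not passed the fold, and Grhl3 (0.27) and Tfap2c (0.18) between the sexes. At most 5% mitochondrial UMIs left 40 and 23 epithelium-like and 869 and 690 mesenchyme-like barcodes, so that only 4 members in each library kept 20 UMIs against mesenchyme, 4 of 4 of them higher. The Shh split then rested on only 3 male and 4 female Shh-positive barcodes. Of 2 male members with enough UMIs in this split 0 were higher and 2 lower, and male Tfap2a turned to 0.29. Of 3 members with enough UMIs between the sexes 0 were apart. After thinning to 2000 UMIs, 3 of 5 male and 5 of 6 female members with enough UMIs were higher than in mesenchyme, and of 2 with enough UMIs in each other comparison 0 were higher with Shh in either library, 2 were lower in the female library and 0 were apart between the sexes. With the mean CPM per barcode 5 male members were higher and 2 lower with Shh. In the female library 2 were higher without barcodes rich in mesenchyme markers, from 5000 UMIs up, or with any summed count, and 2 were lower with at least 2 Epcam or at least 2 Shh UMIs. The 33 Shh ratios of Foxa1 and Foxa2 under these settings lay between 2.11 and 8.49, and 42 ratios of members had no value because a group held 0 UMIs. Leaving out barcodes with 3 markers of another class, adding the Shh-positive group to the correlations and the 200 UMI limit for mesenchyme were chosen after seeing the data. The 265 epithelium-like barcodes limit what the depth can show.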

Other observations

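Among barcodes without an Epcam UMI, 45 male and 53 female ones held at least 3 of the 14 epithelial markers and were not counted as epithelium-like. In epithelium-like barcodes, 22 male and 18 female ones had more than 0.5 times the median mesenchyme marker share of the mesenchyme-like class. In erythroid barcodes, of whose UMIs 47.1% and 45.7% came from haemoglobin, Tfap2a was at 12.6 and 13.7 CPM. Gm16136, a gene annotated antisense to Grhl2, ranked as most like Esrp1 (0.998) once the Shh-positive group was added to the classes.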
